A study of Mus musculus with 2 samples.

Results

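Amino acid transporters of 7 solute carrier families were examined in the forebrain of mouse embryos at 10.5 days of development. The members were 34 genes given by symbol, of 43346 annotated genes in the tables: 5 of family Slc1, 2 of Slc3, 9 of Slc7, 10 of Slc38, 2 of Slc36, 2 of Slc43 and 4 of Slc6. Each was found in both gene tables by its Ensembl identifier, a match that uses no measured value. The set itself was chosen with earlier results of these data known, and the Slc38a8 ratio between libraries was singled out beforehand. The samples were 2 total RNA libraries of a single group, both from healthy B6NCrl embryos, male and female pooled, that trace to 1 donor record. The labels name no transgene or treatment. Replicate 1 was made from the forebrains of 69 embryos and replicate 2 from those of 51 embryos, each from 10 ng of RNA. The labels call them biological replicates, so each library is the average of a pool and differences between embryos were not measured. With no second group there was no contrast between conditions to test, and a pair of libraries cannot give a p-value below 0.5 in an exact two-sided sign flip test. Levels are therefore given for each library, with a mean ± SD over the 2 libraries.

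Amino acids cross membranes on carriers that differ in which side chains they accept and in what drives transport. Sodium-coupled carriers such as those of Slc38, Slc1 and Slc6 accumulate their substrate in the cell. Exchangers such as the Slc7 light chains trade one amino acid for another and reach the plasma membrane only as a disulfide-linked heterodimer with a single-pass heavy chain of Slc3, so a proliferating neuroepithelium that imports glutamine can use it as the exchange partner for leucine and other essential amino acids. A further group sits on the lysosome, where amino acids leaving the organelle are read by the mTORC1 growth pathway.

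The libraries held 41537304 and 38012457 expected counts in annotated genes, in replicates 1 and 2. All 6 forebrain markers were at or above 1 TPM in both (TPM is a gene's share of the library's transcripts, adjusted for length), led by Lhx2 at 91.7 and 98.3 TPM, Nr2e1 at 68.6 and 74.9 TPM and Pax6 at 64.9 and 67.9 TPM, so the labelled tissue had its defining transcription factors. Each list of 6 markers for endothelium, erythroid cells, macrophages, mesenchyme and surface epithelium was also detected in full. The summed level was 165 and 174 TPM for the endothelium list, 17399 and 12885 TPM for erythroid cells, 47.3 and 45.0 TPM for macrophages, 491 and 494 TPM for mesenchyme and 133 and 126 TPM for surface epithelium. The part of these cells in any transporter's level was not tested.

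Of the 34 transporters, 26 reached 1 TPM in both libraries, against 32.4% of all annotated genes and 57.3% of the 21474 protein-coding genes. No test was made of this share. A further 5 passed the limit in a single library (Slc7a3, Slc7a8, Slc7a11, Slc38a8 and Slc36a1), and 3 stayed under it in both (Slc1a1, Slc3a1 and Slc6a11). The median member stood at 7.44 TPM in replicate 1 and 6.83 TPM in replicate 2, while the median over all annotated genes was 0.05 and 0.04 TPM. Among detected genes alone the order turned around, with a median of 14.1 and 14.7 TPM for the detected members and 17.0 and 17.2 TPM for all detected genes. Together the members held 642 and 649 TPM.

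**Figure D1:**
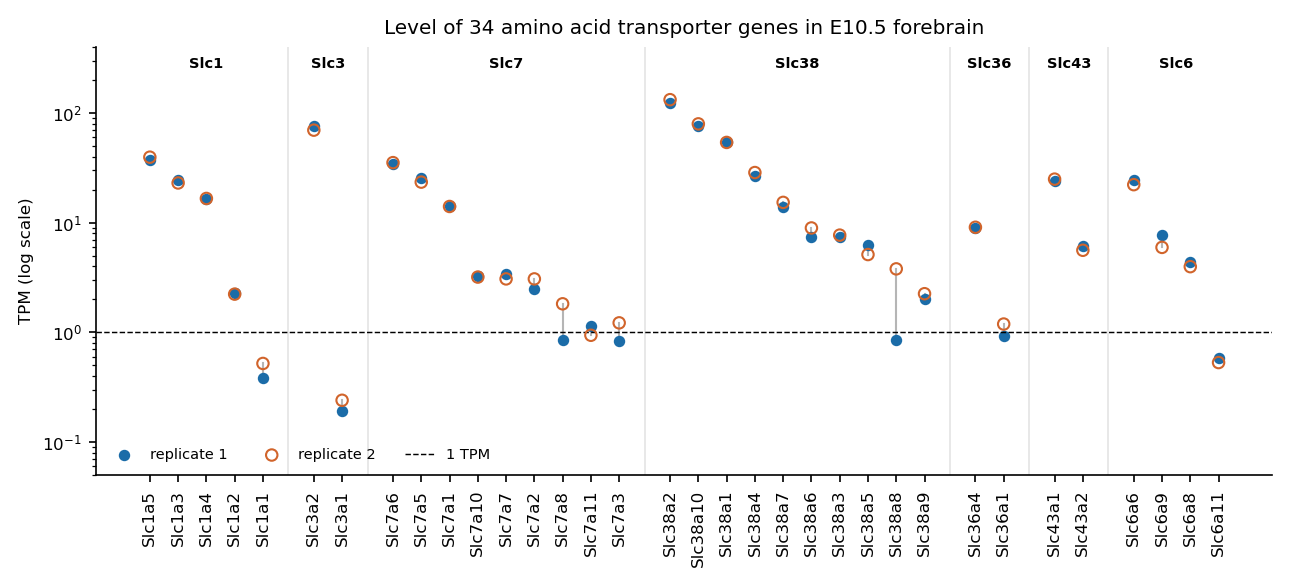
Level of each of the 34 transporter genes in TPM (log scale) in replicate 1 (filled points) and replicate 2 (open points), grouped by family and ordered by mean, with the detection limit of 1 TPM as a dashed line. Most pairs of points lie on each other, 14 genes reached 10 TPM in both libraries, and Slc38a8 and Slc7a8 have their points far apart.

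The sodium-coupled neutral carriers of Slc38 supplied the largest summed level of the 7 families, 321 TPM in replicate 1 and 338 TPM in replicate 2, with 9 of 10 members detected. Slc38a2 (SNAT2, the system A carrier whose synthesis rises when amino acids are scarce; chr15:96687392-96699730, GRCm38) was the most abundant of all members at 124 and 132 TPM. It alone made up a mean of 19.9% of the members' summed TPM. Slc38a10, a broadly expressed member of the family, followed at 76.8 and 79.6 TPM. Slc38a1 (SNAT1, a system A carrier for glutamine and alanine) stood at 54.9 and 53.9 TPM. With all transcripts summed, the order of these members was the same in both libraries, and the ranges of the libraries did not overlap between neighbours. Slc38a10 had 62.3% and 63.1% of its TPM in transcripts annotated as protein coding. On those alone it had 47.9 and 50.3 TPM, below Slc38a1 in both libraries.

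Within system A, Slc38a2 exceeded Slc38a1 by 1.24 ± 0.082 on the log2(TPM + 0.1) scale (mean ± SD, n = 2), a 2.36-fold difference of levels. It exceeded Slc38a4 (SNAT4, an imprinted system A carrier best known from placenta and liver; 26.7 and 28.7 TPM) by 2.21 ± 0.010, or 4.63-fold. Without division by transcript length the first of these differences was 0.55, since Slc38a1 has long transcripts. The system N carriers, which exchange glutamine for protons and run in both directions, were lower: Slc38a3 (SNAT3) had 7.43 and 7.70 TPM and Slc38a5 (SNAT5) 6.31 and 5.12 TPM. With all transcripts summed, Slc38a5 lay below Slc38a3 by 0.41 ± 0.25, as -0.23 in replicate 1 and -0.58 in replicate 2. This was the smallest difference among the pairs compared within a library. On transcripts annotated as protein coding Slc38a3 had 5.89 and 5.97 TPM, below Slc38a5 in replicate 1 and above it in replicate 2.

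Slc38a7 (SNAT7, which exports glutamine from the lysosome) stood at 13.8 and 15.3 TPM. Slc38a9 (the lysosomal arginine sensor that signals to mTORC1) had 2.03 and 2.25 TPM, 6.55-fold below Slc38a7 (2.71 ± 0.0020 as a log2 difference of levels). The reads of the 2 genes differed less than this, at 494 and 495 expected counts for Slc38a9 against 1094 and 1052 for Slc38a7, because the annotated Slc38a9 transcript is long, with an effective length of 8805 bases. Without the length division the difference was -1.11. Slc38a6, a less studied member, had 7.44 and 8.95 TPM, and Slc38a8 (SNAT8), described further on, had 0.86 and 3.79 TPM.

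In Slc1 a neutral exchanger led when all transcripts of a gene were summed. Slc1a5 (ASCT2, which brings in glutamine in exchange for other neutral amino acids) had 37.5 and 39.6 TPM, and Slc1a4 (ASCT1, the serine carrier) had 16.5 and 16.6 TPM. Slc1a5 was higher by 1.21 ± 0.045 on the log2 scale, 2.32-fold, or 0.59 before division by length. Most of this lead was lost on transcripts annotated as protein coding, with 16.8 and 20.2 TPM for Slc1a5 and 16.5 and 16.6 TPM for Slc1a4. Among the glutamate carriers of the family, Slc1a3 (GLAST, the carrier of radial glia and later of astrocytes) was the highest, at 24.5 and 23.0 TPM. Its coding transcripts held 17.6 and 15.8 TPM, above those of Slc1a5 in replicate 1 and below them in replicate 2. Slc1a2 (GLT-1, the main carrier of mature astrocytes) had 2.28 and 2.23 TPM. Slc1a1 (EAAC1, the neuronal carrier) had 0.38 and 0.52 TPM, from 29 and 48 counts.

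Slc1a3 thus exceeded Slc1a2 by 3.34 ± 0.042 (10.1-fold) and Slc1a1 by 5.45 ± 0.32 (43.7-fold). The first was 2.44 with the deposited posterior mean TPM, a second estimate of the same level, and 2.39 without division by length. With a pseudocount of 1 TPM the second fell to 4.10. The direction was the same with each.

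The heavy chain Slc3a2 (CD98 or 4F2hc; chr19:8706882-8723369, GRCm38) was the third most abundant member, at 75.7 TPM in replicate 1 and 69.8 TPM in replicate 2. Its 6 possible Slc7 light chains summed to 68.9 and 67.7 TPM, close to the level of the heavy chain itself. On the log2 scale the heavy chain exceeded this sum by 0.09 ± 0.065 (n = 2), or 1.06-fold, a ratio of 1.10 in replicate 1 and 1.03 in replicate 2. Taken from reads without division by length, the sign turned, to -0.35, since Slc7a6 and Slc7a5 have longer transcripts than Slc3a2, so the near equality holds for levels per length. The other heavy chain, Slc3a1 (rBAT, the partner of the renal cystine carrier), had 0.19 and 0.24 TPM, from 11.6 and 13.5 counts, and lay below Slc3a2 by 7.86 ± 0.24 on the log2 scale. A pseudocount of 1 TPM brought that difference to 5.92, so its size depends on the pseudocount with Slc3a1 this close to 0.

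Most of the light chain sum came from a pair of exchangers. Slc7a6 (y+LAT2, which trades arginine for glutamine and sodium) had 34.5 and 35.3 TPM, a mean share of 51.0% with an SD of 1.498 (n = 2). Slc7a5 (LAT1, the carrier of leucine and other large neutral amino acids) had 25.8 and 23.4 TPM, a share of 36.0% ± 2.02. Together they made 87.1% ± 0.52 of the sum. Slc7a6 was above Slc7a5 in both libraries, and their ranges did not overlap.

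The other light chains were at lower levels. Slc7a7 (y+LAT1, the counterpart of Slc7a6 in epithelia and macrophages) had 3.40 and 3.07 TPM, lower than Slc7a6 by 3.39 ± 0.13, or 10.5-fold, and by 4.23 on the log2 scale without division by length. Slc7a8 (LAT2, the counterpart of Slc7a5 in transporting epithelia; chr14:54722209-54781946) had 0.85 and 1.82 TPM, lower than Slc7a5 by 4.19 ± 0.82. The spread of this last difference is large because the libraries differed in Slc7a8, as 4.77 in replicate 1 and 3.62 in replicate 2, and the mean was 3.49 with a pseudocount of 1 TPM. Slc7a10 (Asc-1, a carrier of small neutral amino acids including D-serine) had 3.29 and 3.19 TPM, but from only 39.9 and 36.0 counts.

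**Figure D2:**
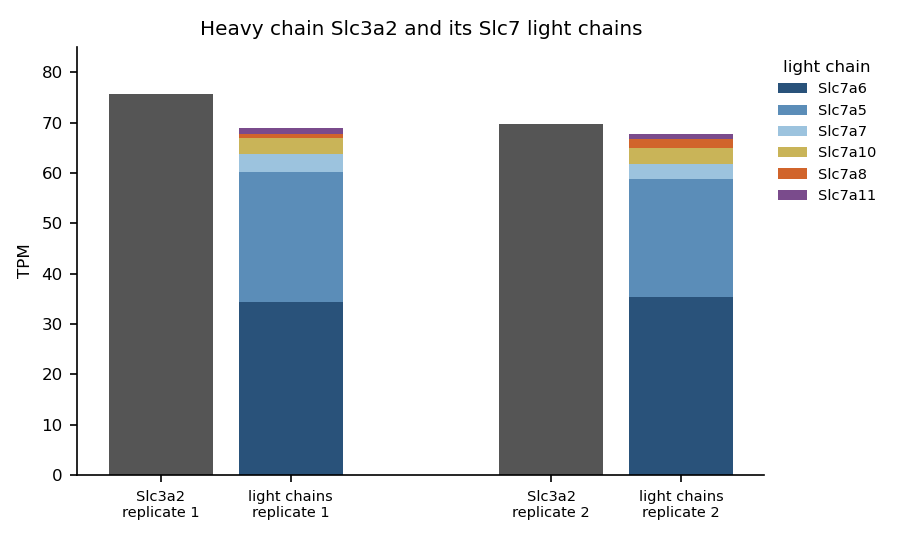
Level in TPM of the heavy chain Slc3a2 (grey bars) beside the stacked levels of its 6 Slc7 light chains, in each of the 2 libraries. In both libraries the stack comes close to the grey bar, with 68.9 against 75.7 TPM and 67.7 against 69.8 TPM, and Slc7a6 and Slc7a5 fill most of it.

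Slc7a11 (xCT, the light chain that brings in cystine for glutathione synthesis; chr3:49892526-50443614) was near the detection limit, at 1.13 and 0.94 TPM from 244 and 178 counts. It is a well-known target of ATF4, the transcription factor of the amino acid deprivation response, so the motif TGATGNAAN, a common way to write the ATF4 response element, was searched on both strands in the 250 bases before each annotated start. Promoters came from RefSeq on GRCm38.p6, where 26 of the 34 members have an entry, with 37 promoters between them. The motif was present in 1129 of 32851 promoters, or 3.44%. Among the members 3 promoters of 2 genes held it, Slc7a11 and Slc7a7. The Slc7a11 promoter held it at 2 places, on opposite strands, and 0.0396% of all promoters had 2 or more matches. The matched stretches are shown because they are the only such matches among the members with an entry, with Asns, Aars and Chac1 as those of the deprivation list, each on the strand of its gene with the matches in capitals. They lie at chr3:50443633-50443699 for Slc7a11, chr14:54418057-54418105 and chr14:54417917-54417952 for Slc7a7, chr6:7693210-7693252 for Asns, chr8:111033709-111033757 for Aars and chr2:119351028-119351076 for Chac1, with Aars and Chac1 on the plus strand and the others on the minus strand.
Slc7a11: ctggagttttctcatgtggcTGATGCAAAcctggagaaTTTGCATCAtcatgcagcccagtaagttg
Slc7a7, 141 bases before a start: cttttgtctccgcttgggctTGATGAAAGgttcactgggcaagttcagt
Slc7a7, 243 bases before another start: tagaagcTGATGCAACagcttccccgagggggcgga
Asns: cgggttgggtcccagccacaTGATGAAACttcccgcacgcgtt
Aars: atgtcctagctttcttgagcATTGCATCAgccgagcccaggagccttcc
Chac1: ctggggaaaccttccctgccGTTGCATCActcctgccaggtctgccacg
The Slc7a11 matches begin 66 and 48 bases before the start. A match describes letters only and no binding was measured. Of the deprivation list 13 genes have an entry, and the 3 that hold the motif had very different levels. Asns (asparagine synthetase) stood at 71.6 and 74.3 TPM and Aars (alanyl-tRNA synthetase) at 78.0 and 76.7 TPM. Chac1 (which degrades glutathione) had 1.17 and 1.07 TPM, close to Slc7a11. Outside that list the motif was also found before Got1 (54.1 and 49.1 TPM) and Lamtor4 (39.2 and 42.2 TPM), genes of other lists described further on.

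The cationic carriers of Slc7 work without a heavy chain and bring in arginine and lysine. Slc7a1 (CAT1, the broadly expressed form) had 14.3 and 14.1 TPM. Slc7a2 (CAT2, inducible in immune cells and present in liver) had 2.50 and 3.07 TPM, lower than Slc7a1 by 2.31 ± 0.22, or 4.97-fold. Slc7a3 (CAT3) had 0.84 and 1.22 TPM, lower by 3.68 ± 0.36, or 12.8-fold. The order of the 3 genes was the same in both libraries. The first difference fell to 1.53 without division by length and the second to 2.91 with a pseudocount of 1 TPM.

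The small families each had a single high and a lower member. Slc43a1 (LAT3, a facilitated carrier of leucine and other neutral amino acids) had 24.1 and 25.0 TPM, and Slc43a2 (LAT4) had 6.15 and 5.60 TPM, lower by 2.04 ± 0.13, or 4.12-fold. In Slc36, Slc36a4 (PAT4, a high-affinity proline and tryptophan carrier) had 8.98 and 9.08 TPM, and Slc36a1 (PAT1, the lysosomal proton-coupled exporter of small neutral amino acids) had 0.92 and 1.19 TPM, lower by 2.99 ± 0.23, or 7.96-fold. With a pseudocount of 1 TPM the Slc36 difference was -2.29.

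In Slc6 the taurine carrier Slc6a6 led, at 24.7 and 22.2 TPM. Slc6a9 (GlyT1, the glial-type glycine carrier) had 7.69 and 5.95 TPM. Slc6a8, which imports creatine, had 4.38 and 3.97 TPM, lower than Slc6a6 by 2.46 ± 0.0092, or 5.51-fold. Slc6a9 exceeded Slc6a8 by 0.69 ± 0.16, or 1.61-fold, in the same direction in both libraries. Slc6a11 (a GABA carrier of mature astrocytes) had 0.58 and 0.53 TPM, lower than Slc6a6 by 5.17 ± 0.029, a difference of 3.97 with a pseudocount of 1 TPM and of 5.92 without length division. The Slc6a8 difference grew to -3.68 without length division. On transcripts annotated as protein coding Slc6a8 had 1.67 and 1.15 TPM and Slc6a9 6.01 and 4.99 TPM. Slc6a6 kept its full level there, so Slc6a8 lay further below both.

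Across the whole set, 18 chosen pairs of members of the same family were compared within each library. With all transcripts summed, the difference in each pair had the same sign in both libraries and a mean beyond 1 SD. On coding transcripts alone Slc38a5 was above Slc38a3 in replicate 1 and below it in replicate 2. Neighbours in the overall order are close in level by construction, and were judged by another measure, the overlap of their library ranges. Of the 33 neighbouring pairs of the 34 genes ranked by mean TPM, 16 had ranges that overlapped between the libraries. One such run held Slc7a5, Slc43a1, Slc1a3 and Slc6a6, whose levels all lay between 22.2 and 25.8 TPM. Another held Slc38a6, Slc38a3, Slc6a9, Slc43a2 and Slc38a5, between 5.12 and 8.95 TPM. As a family summary, the median of log2(TPM + 0.1) was 4.06 ± 0.009 for Slc1 (5 genes), 3.46 ± 0.14 for Slc38 (10 genes), 2.44 ± 0.18 for Slc6 (4 genes) and 1.71 ± 0.068 for Slc7 (9 genes).

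The levels above add all transcripts of a gene, and not all of these encode a protein. The 34 genes had 177 transcripts in the tables. Of the 26 detected members, 16 had over 90% of their TPM in transcripts annotated as protein coding in both libraries, including Slc38a2, Slc38a1, Slc3a2, Slc7a6 and Slc7a5. Counting coding transcripts alone, 25 of the 26 remained at or above 1 TPM in both libraries.

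Only 3 detected members, Slc1a5, Slc6a8 and Slc7a10, had under 50% in coding transcripts in at least 1 library. For Slc1a5 the coding share was 44.7% and 51.1%, with a retained-intron transcript at 46.1% in replicate 1 and 37.7% in replicate 2. For Slc6a8 the share was 38.2% and 29.0%, and its leading transcript, at 44.6% and 57.7%, is annotated as a target of nonsense-mediated decay. Slc7a10 had 11.2% and 17.6%. Its leading model, at 85.8% and 77.6%, is 516 bases long and is the 1 transcript of the 177 that the later annotation GENCODE M21 no longer holds. Its effective length of 417 bases raises the TPM for each count, and the standing of Slc7a10 among the light chains rests on that model.

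**Figure D3:**
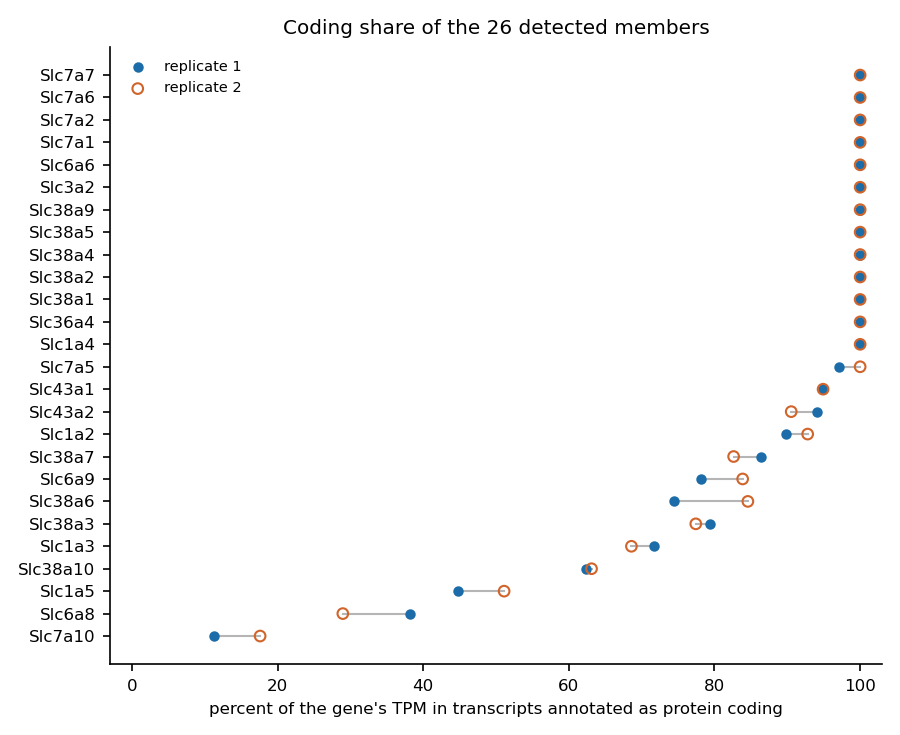
Percent of each detected member's TPM that lies in transcripts annotated as protein coding, in replicate 1 (filled points) and replicate 2 (open points), for 26 genes ordered by their mean. Most genes sit at or near 100%, and Slc1a5, Slc6a8 and Slc7a10 are the lowest, with Slc7a10 at 11.2% and 17.6%.

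The leading transcript was the same in both libraries for 19 of the 21 detected members with several transcripts. The exceptions were Slc1a5, where the coding and the retained-intron transcript changed places, and Slc7a2. In Slc7a2 a transcript at 33.8% of the gene's TPM in replicate 1 was listed at 0 in replicate 2, while another went from 29.1% to 42.4%; both are annotated as coding and of similar length, 7626 and 7910 bases. Slc38a6 kept its leading transcript but in unequal shares, 33.0% and 57.6%, on a model with an effective length of 260 bases. As a consequence the counts of Slc38a6 gave a log2 ratio between libraries of -0.21 and its TPM one of 0.27, and no direction is read for that gene.

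Some members share exon bases with a neighbour. For 11 of the 34 another annotated gene overlapped an exon, each time on the opposite strand. No source used here says whether the counting used strand, so reads of such partners cannot be told apart in the shared stretches. The overlap was largest for Slc1a1 (31.9% of its exon bases, with 4430402I18Rik at 0.39 and 0.21 TPM), Slc6a9 (27.8%, with Ccdc24 at 0.95 and 0.99 TPM) and Slc3a1 (26.5%, with Prepl at 21.02 TPM in both libraries). Slc7a10 shared 17.9% with Lrp3 (9.60 and 9.32 TPM) and Slc7a7 shared 232 bases with Oxa1l (33.1 and 32.0 TPM). The levels of Slc3a1, Slc7a10 and Slc7a7 lie well below those of their partners, and are uncertain for that reason.

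Between the libraries, ratios were taken from expected counts scaled by TMM (a normalization that sets the typical gene to no change), with 95% exact binomial intervals that cover counting error only. A gene was called apart at more than 2-fold and a mean count of 50 or more. Of the 31 members with that count, 2 were called, Slc38a8 and Slc7a8, both higher in replicate 2. Over all 13842 genes with that count, 0.585% were called in either direction, and 0.238% were called higher in replicate 2. The Slc38a8 ratio was singled out beforehand, with earlier results of these data known, so these calls are no test of the members as a set. Of the 31 members 21 lay within 0.2 on the log2 scale, against 78.9% of all genes with that count. The median size of the log2 ratio was 0.12 for the members and 0.084 for all.

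Slc38a8 (SNAT8, a glutamine carrier known from the retina, whose human counterpart is mutated in foveal hypoplasia; chr8:119479602-119501698) stood furthest apart. It had 51 counts in replicate 1 and 220 in replicate 2, or 0.86 and 3.79 TPM. The log2 ratio was 2.23 with an interval from 1.80 to 2.71, a 4.71-fold difference (3.48 to 6.56). Its rank by ratio was 4 among the 33 genes called higher in replicate 2. The gene's main coding transcript carried 79.5% and 88.7% of its TPM, on 47.9 and 212 counts.

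Slc7a8 had 93 and 179 counts, a log2 ratio of 1.08 (0.71 to 1.46), or 2.11-fold. Its interval reaches below the 2-fold limit. Slc36a1 came next among members with 50 counts or more, with 83 and 133 counts and a log2 ratio of 0.81 (0.41 to 1.23), though its TPM gave 0.37, because its effective length was 3271 bases in replicate 1 and 4464 in replicate 2. On the other side, the largest ratios toward replicate 1 were those of Slc1a2 at -0.39 (-0.60 to -0.17) and Slc6a9 at -0.38 (-0.57 to -0.20). For Slc1a2 the TPM gave -0.03. The abundant carriers moved little: Slc38a2 had 0.08, Slc38a10 0.06, Slc38a1 -0.04, Slc3a2 -0.12, Slc7a6 0.02 and Slc1a5 0.03.

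**Figure D4:**
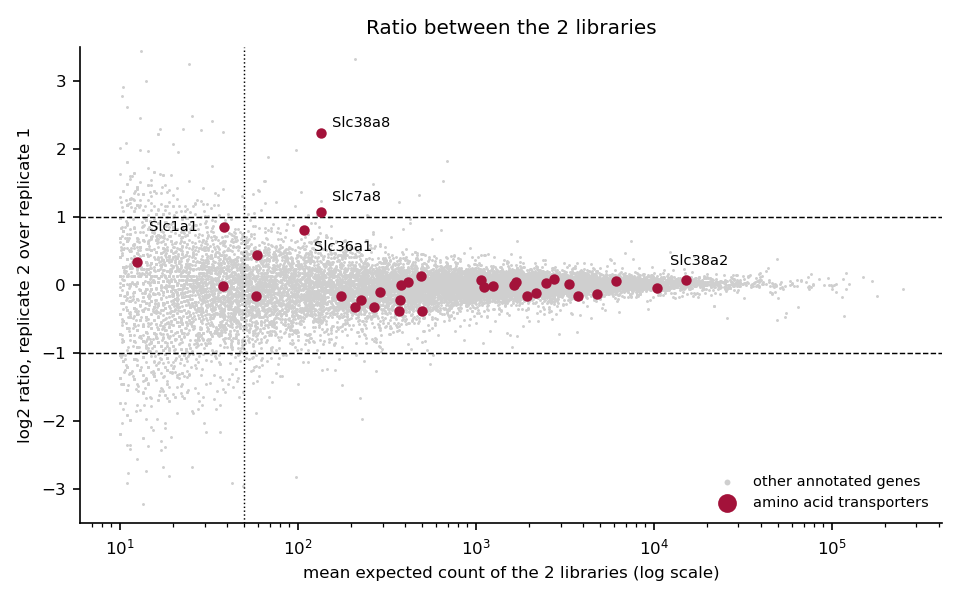
Log2 ratio of replicate 2 over replicate 1 against the mean expected count (log scale) for the annotated genes above 10 in mean count (grey) and the 34 transporters (red), with dashed lines at 2-fold and a dotted line at a mean count of 50; 11 genes, none of them a transporter, lie outside the vertical range. The grey cloud narrows with rising count, and Slc38a8 and Slc7a8 are the members to the right of the dotted line and above 2-fold.

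The spread between libraries depended on the count, and both called members lie where it is wide. At mean counts from 50 to 200, 2.56% of 2543 genes were over 2-fold apart, and of the 6 members there 2 were. Slc38a8, singled out beforehand, is among these 2. At 200 to 1000 the share was 0.413% with 0 of 10 members, and at 1000 and above 0 of 7421 genes and 0 of 15 members. In the band from 10 to 50, which holds Slc1a1, Slc3a1 and Slc7a10, 14.5% of genes were over 2-fold apart and none of the 3 members was. Slc1a1 had a log2 ratio of 0.85 there, on 29 and 48 counts.

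Because Slc38a8 is known from the eye, it was set beside 7 markers of the optic vesicle and of the pigment epithelium that forms from it. This list was chosen with earlier results of these data known, so its direction is no independent support. All 7 were higher in replicate 2, and 5 were over 2-fold apart. Pmel (a melanosome matrix protein) had 5.82 and 20.8 TPM, a log2 ratio of 1.82. Rax (the eye field homeobox factor) had 3.47 and 9.79 TPM, a ratio of 1.48, and Six6 (a retinal homeobox factor) 2.71 and 6.85 TPM, a ratio of 1.32. Tyr (tyrosinase, the enzyme that starts melanin synthesis) had 0.35 and 1.31 TPM, a ratio of 1.88, and Tyrp1 (another melanin enzyme) 0.50 and 1.35 TPM, a ratio of 1.38.

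The other markers of that list were nearer to equal. Dct (dopachrome tautomerase) had 4.43 and 6.58 TPM with a log2 ratio of 0.56, and Mitf (the pigment cell regulator) 1.65 and 1.71 TPM with 0.47. The summed level of the list was 18.9 TPM in replicate 1 and 48.4 TPM in replicate 2, with a median log2 ratio of 1.38 and no marker at 0. The ratio of Slc38a8 exceeded that of every marker in the list. Fewer cells of a type and less RNA per cell cannot be told apart in bulk tissue, and the part of eye tissue in the Slc38a8 and Slc7a8 ratios was not tested.

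No other marker list had a member over 2-fold apart. The median log2 ratio was -0.35 for neurons, -0.44 for erythroid cells, -0.17 for surface epithelium, 0.07 for endothelium, -0.02 for macrophages, -0.04 for mesenchyme, -0.07 for the forebrain list and -0.06 for neuroepithelium. The genes of highest TPM were Tubb3, Map2 and Stmn3 for neurons, Hbb-y, Hbb-bh1 and Hba-x for erythroid cells, Krt8, Krt18 and Cldn6 for surface epithelium, and Egfl7, Esam and Kdr for endothelium. They were C1qb, Fcer1g and Tyrobp for macrophages, Col3a1, Col1a2 and Alx1 for mesenchyme, and Vim, Hmgb2 and Hes5 for neuroepithelium. In the last list Fabp7, a radial glial fatty acid binding protein singled out after its value was seen, had a ratio of -0.71. All 6 neuronal markers and all 6 erythroid markers were lower in replicate 2. Their part in the ratios of single carriers, such as Slc6a9 at -0.38, was not tested.

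**Figure D5:**
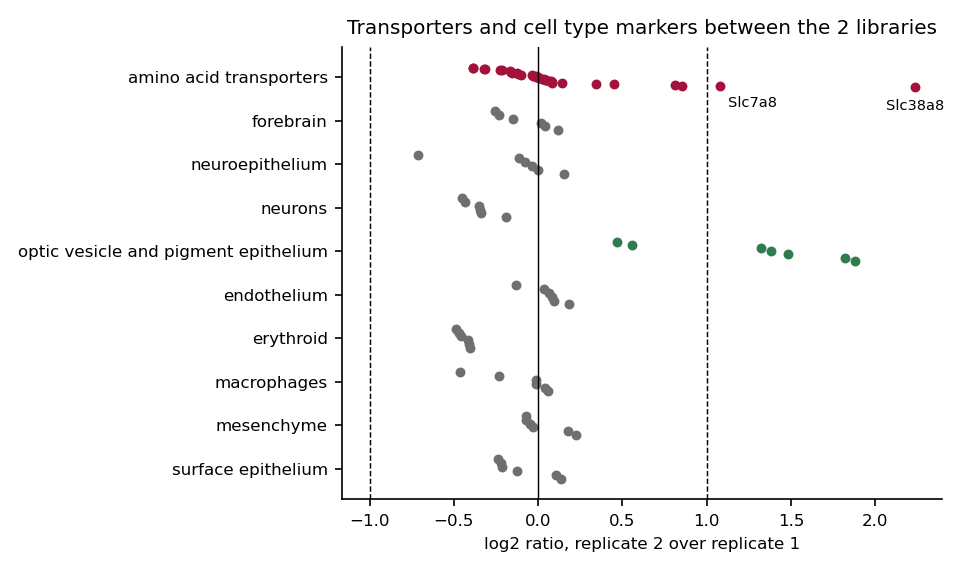
Log2 ratio of replicate 2 over replicate 1 for the 34 transporters (red) and for the members of 9 marker lists (optic list in green, others in grey), with 1 point for each gene and dashed lines at 2-fold. Most transporters lie near 0, with Slc38a8 at 2.23 and Slc7a8 at 1.08 beyond 2-fold, and the optic list is the only marker list with points beyond the dashed lines. All lists were chosen with earlier results of these data known.

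The promoter of Slc38a8 is shown because it is the member furthest apart, beside those of pigment genes that were higher in the same library. The letters TCATGTG, the core of the M-box bound by MITF in pigment cells, were searched on both strands in the 250 bases before the start, together with CACGTG (an E-box, palindromic), TAATTA (a homeobox core, palindromic) and a paired homeobox site of TAATT and AATTA with 1 base between them, which can overlap TAATTA. Of the 7 optic genes 5 have a promoter in the RefSeq table (Dct, Mitf, Six6, Tyr and Tyrp1), and TCATGTG was found in 3 of these, against 3.25% of all promoters. Those 3 are the melanin genes Tyr, Tyrp1 and Dct, and the motif was chosen as one of pigment cells after values were seen. The share is therefore no test. The stretches below run on the strand of each gene, on GRCm38.p6, with the match in capitals. They lie at chr7:87493513-87493554 for Tyr (minus strand), chr4:80834146-80834192 for Tyrp1 (plus strand), chr14:118052371-118052496 for Dct (minus strand) and chr8:119501699-119501948 for Slc38a8 (minus strand, the full 250 bases).
Tyr: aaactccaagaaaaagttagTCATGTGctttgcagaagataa
Tyrp1: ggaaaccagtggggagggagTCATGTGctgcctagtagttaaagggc
Dct: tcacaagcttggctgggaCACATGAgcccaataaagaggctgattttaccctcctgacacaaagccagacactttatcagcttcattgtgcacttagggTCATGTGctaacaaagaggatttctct
Slc38a8: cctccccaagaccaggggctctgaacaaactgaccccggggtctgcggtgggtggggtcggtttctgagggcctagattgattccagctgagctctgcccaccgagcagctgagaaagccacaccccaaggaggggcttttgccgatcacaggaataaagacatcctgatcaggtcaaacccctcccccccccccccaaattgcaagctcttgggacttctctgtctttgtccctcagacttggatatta
None of the 4 motifs was present in the Slc38a8 stretch, which says only that these letters are not in this window. Among the 26 members with an entry, TCATGTG was found in 2 genes, CACGTG in 4 and TAATTA in 2. Slc7a11 held TCATGTG, unmarked within its stretch printed further above. Slc7a8 held TAATTA once, 160 bases before its start, as did 4.84% of all promoters. Slc36a1 held CACGTG 31 bases before its start, as did 6.02%. The paired homeobox site was found in 0.0457% of all promoters and in no promoter of the members or of the optic genes.

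The genes that sense and use transported amino acids were all detected. Of the 93 genes in 7 lists, 76 were detected in both libraries, the undetected ones all being other carriers of the same families, and no list had a gene over 2-fold apart at a mean count of 50 or more. All 14 genes of the amino acid deprivation response were detected, with a median of 62.6 and 63.3 TPM. They were led by Phgdh and Psat1, which make serine, at 369 and 343 TPM and at 134 and 122 TPM, and by Nars (asparaginyl-tRNA synthetase) at 128 and 132 TPM. All 28 genes of amino acid sensing by mTORC1 on the lysosome were detected too, with a median of 28.2 and 29.6 TPM. Leading there were Sec13 (of the GATOR2 complex and of vesicle coats) at 243 and 240 TPM, Rheb (the GTPase that activates mTORC1) at 138 and 160 TPM and Lamtor2 (of the Ragulator scaffold) at 148 and 147 TPM. The lysosomal carriers Slc38a9 and Slc36a1 lay well below these medians, and Slc38a7 also lay below them, at 13.8 and 15.3 TPM.

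The enzymes matched to single carriers were likewise present. The 9 enzymes of glutamine and glutamate metabolism, the substrates of Slc38a2, Slc1a5 and Slc1a3, had a median of 54.1 and 49.1 TPM. Got2 (mitochondrial aspartate aminotransferase) led at 177 and 162 TPM, then Glul (glutamine synthetase) at 113 and 109 TPM and Aldh18a1 (which turns glutamate into the precursor of proline) at 97.1 and 98.6 TPM. The 8 genes of glutathione and cysteine metabolism had a median of 24.6 and 23.5 TPM, against 1.13 and 0.94 TPM for the cystine carrier Slc7a11. In that list Gpx4, which reduces lipid peroxides, had 587 and 613 TPM, Txnrd1 (thioredoxin reductase) 156 and 154 TPM and Gsr (glutathione reductase) 52.3 and 49.99 TPM.

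The 4 genes of the glycine cleavage system, which breaks down the substrate of Slc6a9, had a median of 81.0 and 84.3 TPM, led by Gcsh at 174 TPM in both libraries, Dld at 122 and 127 TPM and Gldc at 40.3 and 41.7 TPM. The 6 genes of creatine and taurine synthesis and use had a median of 14.6 and 13.8 TPM. Ckb (brain creatine kinase) stood far above the creatine carrier Slc6a8, at 1287 and 1313 TPM, while the creatine-making enzymes Gatm (16.1 and 15.1 TPM) and Gamt (15.5 and 16.3 TPM) were lower. The 24 remaining carriers of the same families were mostly undetected: 7 reached 1 TPM in both libraries, and the median was 0.16 and 0.10 TPM. Slc43a3 (a nucleobase carrier) had the highest level of them at 17.6 and 20.1 TPM, then Slc6a15 (a neuronal carrier of branched-chain amino acids and proline) at 6.24 and 5.59 TPM and Slc6a17 (a vesicular carrier of neurons) at 3.12 and 2.02 TPM.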

How the data were processed

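The members and all gene lists were chosen with earlier results of these data known. Per the labels, RNA above 200 bases was extracted with mirVana and spike-ins were added. Notes beside the tables name assembly mm10 and genome annotation M4. No source used here names the aligner, the counting tool, strandedness or priming.

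The authors deposited expected counts (estimated reads, not normalized), TPM, posterior mean TPM and FPKM per gene and transcript. The deposited percent is each transcript's share of its gene's TPM, per the file headers. TPM and FPKM are shares per length, taken over all 69691 deposited rows including 97 spike-in rows, which held 7.83% and 7.01% of TPM. Depth was 41537304 and 38012457 expected counts in 43346 annotated genes.

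Genes were matched to symbols by identifier without version (42462 matched) and to coordinates in GENCODE M21 (GRCm38, also called mm10). Within-library differences used log2(TPM + 0.1). Unrounded expected counts plus 0.5 gave ratios between libraries, scaled with TMM factors from edgeR 4.0.16 in R 4.3.3 over 16637 genes with 10 counts in each library. Intervals are 95% exact binomial and cover counting error only. A difference within a library was taken as larger than the spread where its mean exceeded 1 SD and both libraries had the same sign. No p-value was computed. The scaling, the ratios between libraries and the 2-fold call were tested on simulated counts, with planted changes larger than 2-fold. Named genes followed a rule: all members; of each pathway list the 3 of highest mean TPM; of each marker list the 3 highest; and all optic markers. Another gene of the planned optic list is not reported here and entered no count. Asns, Aars, Chac1, Got1 and Lamtor4 were added for their promoter matches, and the motifs beside Slc38a8 were chosen, after values were seen. Alternatives covered pseudocounts, detection limits, posterior mean TPM, FPKM, size factors from DESeq2 1.42.0, count filters and single libraries. Python 3.11.15 with pandas 2.3.3, numpy 2.4.6, scipy 1.17.1 and matplotlib 3.10.9 did the rest.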

Additional observations from a re-analysis of the deposited data

How the results depend on the processing

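Of 337 alternative values, 278 stayed within the error of the reported value or near the reported count, 58 moved further, and 1 reversed a difference that had exceeded the spread. The 278 include values from a single library. For a mean of 2 libraries, each library lies within 1 SD by construction, so those values could not move and show no stability. The sign changed in 8, this one included: the heavy chain Slc3a2 against its light chains (-0.35 without division by length), the ratio of Slc38a6 between libraries (0.27 by TPM), and 6 values of Slc1a4, Slc7a2, Slc7a10 and Slc36a4, whose ratios were under 0.02 in size with either sign. Log2 family medians moved with a pseudocount of 1 TPM (Slc1 4.13, Slc7 2.06, Slc6 2.66, all members 3.02), with detected members alone (Slc1 4.32, Slc7 2.80, Slc38 3.87, Slc6 2.78, all members 3.85), with posterior mean TPM (Slc1 4.03, Slc6 2.71, all members 3.02) and with spike-ins removed (Slc1 4.17, Slc7 1.82, all members 2.96). At a limit of 10 TPM, 10 of 11 members kept their leading transcript. The detected members numbered 32 at 0.5 TPM, 26 at 2 TPM, 30 by posterior mean TPM and 25 on coding transcripts alone, a setting chosen after seeing the data. The Slc38a8 ratio stayed between 2.14 and 2.25, and both called members were called under each count filter and scaling run. Ratios between libraries need both libraries, so none can be left out. No paired analysis was possible because the samples form 1 group. The causes of these shifts were not tested. Members under about 50 counts are too shallow for a ratio: at 10 to 50 counts, 14.5% of all genes differ over 2-fold.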

Other observations

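Among the carriers outside the 34 members, the proline carrier Slc6a20a had 48.7 counts in replicate 1 and 10.6 in replicate 2, a log2 ratio of -2.02 with an interval from -3.11 to -1.06, on a mean count below 50. It was thus opposite in direction to Slc38a8. Its near copy Slc6a20b had 22.3 and 13.5 counts, and both have fractional expected counts, so their values are uncertain. Other genes called over 2-fold higher in replicate 2 included Aldh1a1 (41 and 378 counts, a retinaldehyde dehydrogenase of the dorsal retina), its relative Aldh1a7 (42 and 153 counts) and Trpm1 (362 and 950 counts, a channel of pigment cells and retinal bipolar cells). These were chosen after their values were seen.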
